A study of Mus musculus with 22 samples.

Results

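Donor T cells recovered from the gut and from the spleen of the same kind of recipient differ in expression, and the question here is for which genes that gut-against-spleen difference is itself unequal in CD4 and CD8 T cells. The measure is a difference of differences: gut minus spleen in CD4, minus gut minus spleen in CD8, on the log2 scale, taken inside a set of 4 libraries that share a batch and a treatment label. Of 22 RNA-seq libraries, 20 form 5 complete sets, and 12127 of 24091 gene names had enough counts to be tested. The 2 libraries left out are IgG spleen libraries of batch 181201 (1 CD4, 1 CD8) that have no gut partner.

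Every library comes from wild-type C57BL/6 donor cells. Donor spleen and bone marrow cells went intravenously into lethally irradiated wild-type BALB/c mice, and the recipients were then injected on alternate days, from day 0 through day 6, with anti-IL-2 antibody or with IgG as its control. Sorting of the donor CD4 and CD8 populations followed on day 7, from spleen and from colon (gut here). All groups therefore share irradiation, an allogeneic transfer and an antibody injection, and no library comes from an untransplanted mouse. The sets are anti-IL-2 181201, anti-IL-2 181212, anti-IL-2 190306, IgG 181212 and IgG 190306, and lists of 5 values keep that order throughout. The labels do not say whether the 4 libraries of a set come from the same animals or from pooled ones, so p-values measure the spread between these 5 sets.

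T cells that settle in a tissue keep a program of retention: the integrin CD103 (encoded by Itgae) binds E-cadherin on epithelium, CD69 opposes the exit receptor S1PR1, and TGF-beta signalling raises CD103 and its own feedback genes. In the intestine this program is best known for CD8 T cells in and under the epithelium, whereas intestinal CD4 T cells are known for helper programs such as the Th17 one that makes IL-17. CD4 and CD8 T cells also start from different levels of these genes in lymphoid tissue.

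Library totals ran from 14628806 to 24518362 counts. Cd4 stood at 1782 to 2550 CPM (counts scaled to equal library size) in the 10 CD4 libraries and at no more than 7.07 in the CD8 libraries, and Cd8a stood at 905 to 2131 CPM in the CD8 libraries and at no more than 3.65 in the CD4 libraries, so each sort carried the marker of its label. On the first principal component (34.8% of the variance) cell types separate, and on the second (24.3%) tissues do. Tissue was taken from the source name. For the 4 CD8 IgG libraries used here the free-text description names the other tissue. By the source name Itgae was higher in gut than in spleen in all 5 CD8 pairs. By the description it would be lower in the 2 IgG pairs. Libraries of batch 190306 sit with the opposite treatment label: on the second component the CD4 spleen libraries have scores of -47.9, -42.6, -9.92, -17.0 and -37.2. Results are therefore also given without that batch. Macrophage and monocyte genes (16 genes) summed to 31.9 to 452 CPM in CD4 spleen, 31.2 to 90.8 in CD4 gut, 47.9 to 172 in CD8 spleen and 55.4 to 132 in CD8 gut, and none of the 16 was at 0 in all 5 libraries of a group. Intestinal epithelial genes (18 genes, Cdh1 among them) summed to 39.7 to 127 CPM in CD4 gut and 69.3 to 229 in CD8 gut, against at most 25.9 in spleen, where 3 of the 18 were at 0 in all CD4 and 8 in all CD8 libraries.

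The gut effect differed between the cell types for 2071 genes, which is 17.1% of those tested (edgeR quasi-likelihood test, Benjamini-Hochberg adjusted p under 0.05). For 1167 genes (9.62% of all) the difference was higher in CD4 and for 904 (7.45%) it was lower in CD4, that is, more positive in CD8. Most of these were of modest size: the median absolute difference was 0.37 on the log2 scale among called genes, against 0.13 among all genes. A difference of at least 2-fold was reached by 77 genes higher in CD4 and 182 lower in CD4. In 1824 of the 2071 called genes the sign was the same in all 5 sets, which held for 27.5% of all genes tested. The calls rest on these same 5 values, and the 27.5% includes the called genes. The shared sign is therefore a description and not a replication. In bulk samples, fewer cells of a type and less RNA per cell cannot be told apart. Without batch 190306 the counts were 536 and 449. With the set as the only block (no separate cell type and tissue terms for each set) they were 220 and 215, and with limma on the 5 within-set differences 337 and 226. With library totals in place of TMM scaling they were 788 and 1342, so 37.0% of calls were higher in CD4 instead of 56.3%. That scaling moved the median of all genes from 0.0067 to -0.0435.

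Most gut effects shared their direction in CD4 and CD8. Gut minus spleen was called for 4817 genes in CD4 (20.4% of genes higher, 19.3% lower) and for 5106 in CD8 (21.4% higher, 20.7% lower). Of the 3254 genes called in both, 3223 (99.0%) went the same way and 31 (0.256% of those tested) went opposite ways. Across genes, which are not independent and share all libraries, the effects in CD4 and CD8 had r = 0.796. Among the 2071 called differences, 559 genes had a called gut effect in CD4 alone, 635 in CD8 alone and 323 in neither, and where both went the same way 315 were larger in CD4 and 208 larger in CD8.

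**Figure D1:**
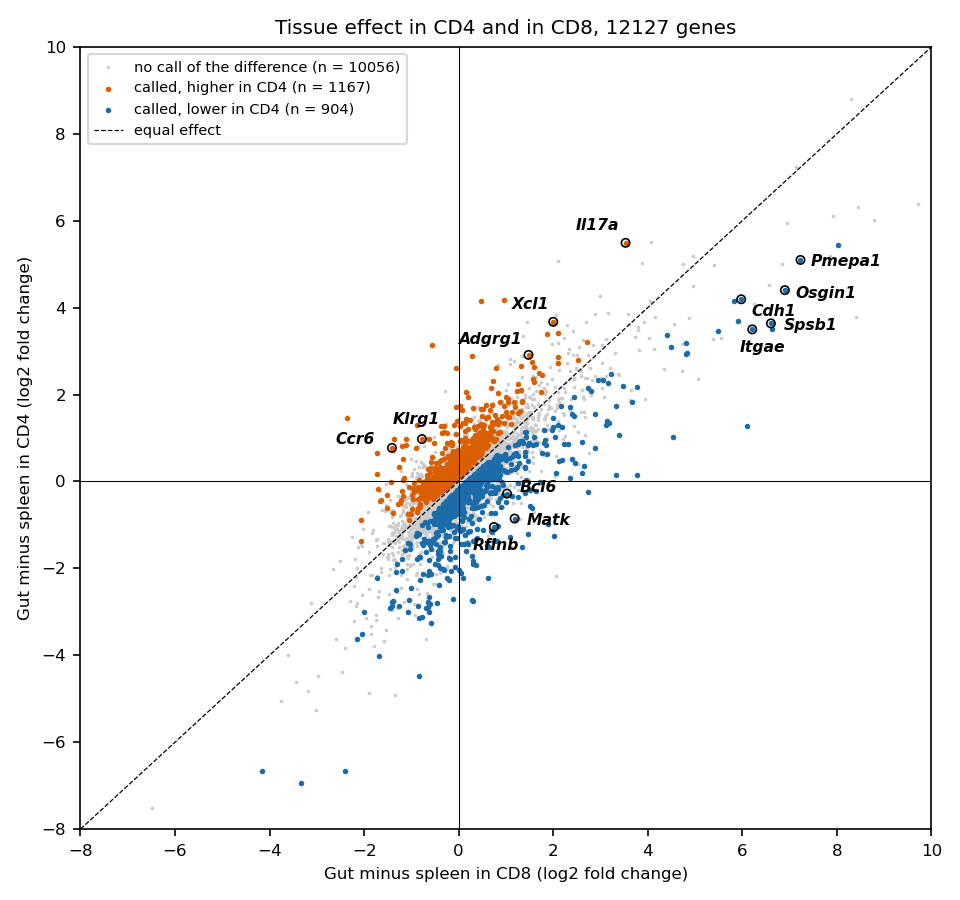
Fitted gut minus spleen effect in CD8 (horizontal axis, log2 fold change) against that in CD4 (vertical axis, log2 fold change), 1 point a gene for 12127 genes. Orange and blue points are the 1167 and 904 genes whose effect differed between cell types, most genes lie near the dashed line of equal effect, and named genes are ringed.

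A difference of differences is also the change, from spleen to gut, in the gap between CD4 and CD8. Described that way, the cell types stood nearer to each other in gut than in spleen for 1176 of the 2071 called genes (56.8%), farther apart for 299 (14.4%), and in the other order for 596 (28.8%). Over all tested genes the shares were 50.2%, 31.1% and 18.7%. The median absolute CD4 to CD8 gap of called genes was 0.485 log2 in spleen and 0.299 in gut, and over all genes 0.243 and 0.200. These are means over the 5 sets and were not tested.

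Several of the largest negative differences, with a larger rise in CD8, were in genes that both cell types raised in gut: Spsb1, Itgae, Osgin1, Pmepa1 and Cdh1. Itgae, the CD103 chain, is on chromosome 11 (73090583 to 73147446, plus strand, mm10). It stood at 6.67, 6.01, 10.3, 9.81 and 12.4 CPM in CD4 spleen and at 239, 175, 53.1, 138 and 36.6 in CD4 gut. In CD8 it stood at 4.01, 1.83, 1.99, 2.51 and 1.54 CPM in spleen and at 371, 331, 84.3, 117 and 81.0 in gut. Every gut library was above every spleen library of its cell type, every CD8 spleen library was below every CD4 spleen library, and the CD4 and CD8 gut libraries overlapped. The gut effect was 3.50 ± 0.61 (log2, SE) in CD4 and 6.21 ± 0.29 in CD8, a difference of -2.60 ± 0.46 with an adjusted p of 0.027 by edgeR, negative in 5 of 5 sets. That call was lost when anti-IL-2 181212, anti-IL-2 190306 or IgG 181212 was left out (adjusted p from 0.054 to 0.092), while without batch 190306 it held at -1.82 (adjusted p 0.0011). Haspin lies within Itgae on the other strand, and whether counting used strand is not given in the sources used here.

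Pmepa1, a membrane protein induced by TGF-beta that dampens its signal, showed the pattern with less spread. In CD4 it stood at 2.56, 0.876, 0.998, 1.34 and 1.56 CPM in spleen and at 41.3, 33.9, 111, 45.8 and 36.6 in gut. The CD8 libraries gave 0.617, 0.236, 0.139, 0.390 and 0.405 CPM in spleen and 36.0, 43.0, 91.2, 37.4 and 62.2 in gut. The gut levels of CD4 and CD8 overlapped, and the spleen levels did not. The CD4 minus CD8 gap was 1.77 ± 0.27 log2 (SD, n = 5 sets) in spleen and -0.0675 ± 0.47 in gut. The difference of the gut effects, 5.10 in CD4 and 7.23 in CD8, was -2.15 ± 0.22 (adjusted p 3.8e-05, edgeR). CD8 spleen values rest on 3 to 12 counts a library.

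Spsb1, an adaptor of a ubiquitin ligase, had the most negative difference of the genes ranked by size, -3.02 ± 0.33 (adjusted p 1.2e-04, edgeR). Its set values were -2.94, -2.32, -1.84, -1.35 and -4.01. Its gut effect was 3.64 in CD4 and 6.61 in CD8. It stood at 0.939 to 3.69 CPM in CD4 spleen, 0.162 to 0.501 in CD8 spleen, 16.1 to 47.4 in CD4 gut and 17.2 to 44.5 in CD8 gut, so again the cell types overlapped in gut and not in spleen. Osgin1, an NRF2-responsive growth inhibitor, had -2.56 ± 0.38, with gut effects of 4.40 and 6.90. Its levels were 31.1 to 94.4 CPM in CD4 gut, 65.4 to 86.1 in CD8 gut and 0.446 to 0.947 in CD8 spleen. Both genes lay under 1 CPM in CD8 spleen, so their fitted folds depend on the prior count.

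Cdh1 encodes E-cadherin, the ligand of CD103, and is also an epithelial marker. It stood at 0.923, 0.501, 3.17, 2.34 and 1.14 CPM in CD4 spleen and at 15.2, 14.6, 87.0, 28.2 and 15.2 in CD4 gut. CD8 spleen held 0.720, 0.472, 0.924, 1.0 and 0.568 CPM and CD8 gut 34.8, 33.5, 85.7, 42.0 and 37.3. CD8 gut was above CD4 gut in 4 of 5 sets. The gut effect was 4.19 in CD4 and 5.98 in CD8, a difference of -1.79 ± 0.18 (adjusted p 3.7e-05, edgeR). Beside it, Vil1, which marks epithelium, stood at 7.98, 2.87, 1.05, 0.388 and 0 CPM in CD4 gut and 16.2, 4.36, 0.526, 0.531 and 0.0540 in CD8 gut. Vil1 was highest in anti-IL-2 181201 and Cdh1 in anti-IL-2 190306. The difference of Vil1 was also called lower in CD4. Of 9 tested epithelial genes these 2 were lower and none higher, with a median of -0.58. Among all genes 7.45% were lower and 9.62% higher. The part of epithelial RNA in the Cdh1 value was not tested.

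Isg20, an interferon-inducible exonuclease, had the smallest adjusted p of all genes, 4.5e-07 (edgeR), with a difference of -1.36 ± 0.07. It stood at 31.5, 29.3, 23.6, 20.6 and 35.4 CPM in CD4 spleen and at 49.4, 45.6, 64.0, 41.7 and 53.5 in CD4 gut. For CD8 the levels were 11.2, 11.5, 8.51, 9.69 and 13.5 CPM in spleen and 47.3, 42.8, 66.9, 47.4 and 50.4 in gut. CD4 and CD8 gut libraries lay in the same range, with a gap of -0.0017 ± 0.12 (SD, n = 5 sets), whereas in spleen CD4 was higher by 1.35 ± 0.16. Ski, a repressor of SMAD-driven transcription, was of the same form at -0.85 ± 0.05 (adjusted p 6.0e-07, edgeR), with gut effects of 0.96 in CD4 and 1.82 in CD8.

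Of 18 tested TGF-beta receptors and feedback genes, 4 were lower in CD4 (Pmepa1, Ski, Tgfbr2 and Tgfbr3) and 3 higher (Smad3, Smad7 and Tgfb1). The median was -0.03, against 0.0067 over all genes, of which 7.45% were lower and 9.62% higher. With the set as the only block 1 of the 18 was lower and 2 were higher, and with limma on the 5 differences 2 and 1. Tgfbr3, the co-receptor betaglycan, had a gut effect of 1.87 in CD8 and 0.64 in CD4, the latter not called, and a difference of -1.31 ± 0.15. Smad7, the inhibitory SMAD, rose in gut in both, by 1.57 in CD4 and 1.27 in CD8. Skil, a paralogue of Ski, had 1.88 and 1.91 and a difference of -0.01 ± 0.06.

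In gut, 16 of 16 tested genes of the tissue residence list were higher in CD4 and 15 in CD8. Over all genes 20.4% and 21.4% were. Of the differences, 4 were higher in CD4 (Hic1, Prdm1, Runx3 and Xcl1) and 4 lower (Cd69, Cdh1, Itgae and P2rx7), with a median of 0.12. Among all genes 9.62% were higher and 7.45% lower. The 4 and 4 became 1 and 1 with the set as the only block and with limma on the 5 differences. Cd69 had gut effects of 1.94 in CD4 and 2.44 in CD8, a difference of -0.50 ± 0.10 (adjusted p 0.012, edgeR). That call was lost without anti-IL-2 181201 (adjusted p 0.065) and without IgG 190306 (adjusted p 0.063). Itga1, the CD49a chain of a collagen-binding integrin, had 1.53 and 1.67 and a difference of -0.11 ± 0.16. Ccr9, the homing receptor for small intestine, had 3.56 and 3.79 and a difference of -0.21 ± 0.40, and Cxcr6, which holds T cells in tissues, had 0.68 and 0.48 and a difference of 0.20 ± 0.07. The last 3 differences were not called.

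Of IL-2 and STAT5 targets, 7 of 25 were lower in CD4 and 3 higher, with a median of 0.08, where 7.45% of all genes were lower and 9.62% higher. With the set as the only block the counts were 1 and 0, and with limma on the 5 differences 3 and 1. The suppressors of cytokine signalling were on the lower side: Cish -0.76 ± 0.14, Socs1 -0.55 ± 0.09, Socs2 -0.97 ± 0.25 and Socs3 -0.53 ± 0.11. Socs2 had -0.58, 0.15, -1.83, -0.50 and 0.03 in the 5 sets, so 2 sets were above 0 and anti-IL-2 190306 was the lowest, and without that set it was -0.44 and not called (adjusted p 0.16, edgeR). Without anti-IL-2 181201 neither Socs2 (adjusted p 0.072) nor Cish (adjusted p 0.052) was called. Cish rose in gut by 2.47 in CD4 and 3.23 in CD8. Il2ra, the high-affinity receptor chain, had a difference of -0.10 ± 0.08 and no called gut effect in either cell type. In 3 of the 5 sets the mice had been given antibody to IL-2.

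St8sia1 and B4galnt4, named for their size, also had larger gut effects in CD8. St8sia1, the sialyltransferase that makes ganglioside GD3, rose in gut by 1.29 in CD4 and 3.13 in CD8 (difference -1.79 ± 0.17, adjusted p 1.8e-04 by edgeR). It stood at 56.3 to 162 CPM in CD4 gut and 7.81 to 41.3 in CD8 gut, so the gap of the spleen (27.7 to 46.2 against 0.767 to 3.01) narrowed but the order held in each set. B4galnt4, a glycosyltransferase, rose by 1.83 and 3.66 (-1.76 ± 0.34, adjusted p 0.036 by edgeR). That call held without IgG 181212 and was lost without any 1 of the other 4 sets. Ntrk3, a neurotrophin receptor, stood at 1.85 to 2.78 CPM in CD8 spleen and 6.14 to 9.65 in CD8 gut, while CD4 tissues overlapped (3.69 to 9.03 and 4.80 to 7.5), a difference of -1.71 ± 0.16.

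**Figure D2:**
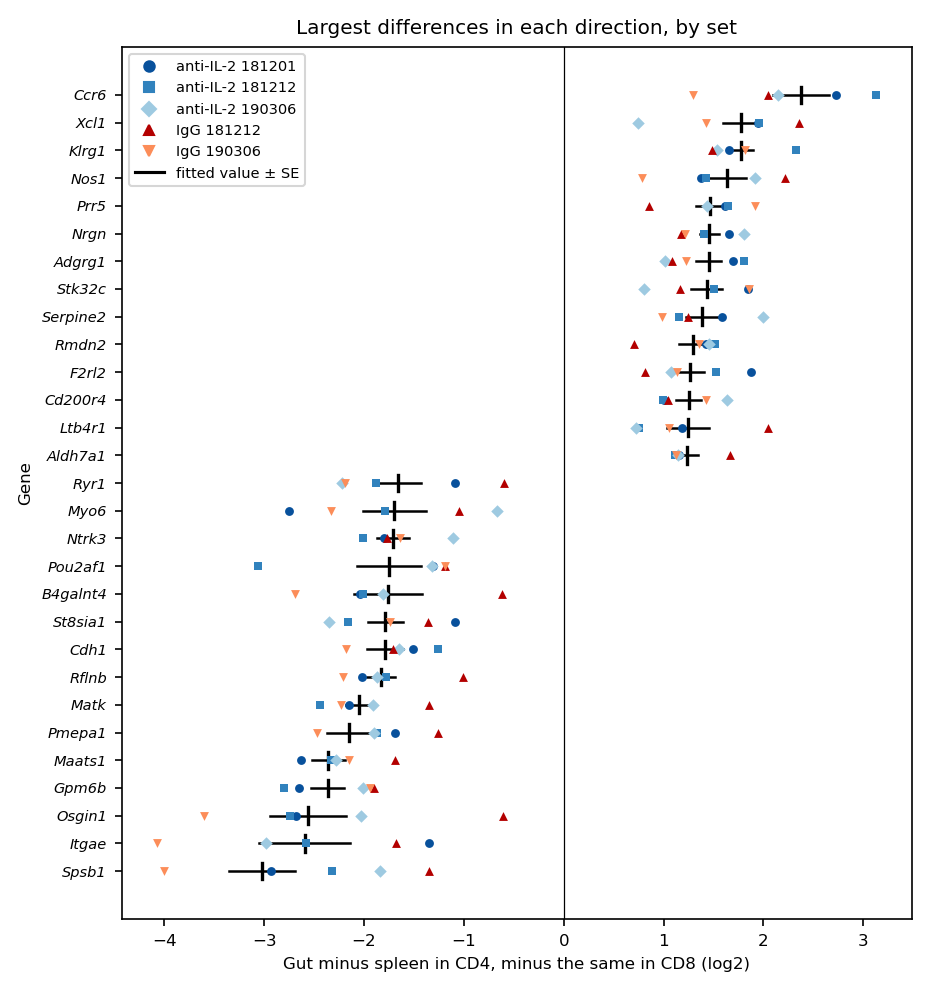
Difference of differences (gut minus spleen in CD4, minus the same in CD8, log2, horizontal axis) for the called genes named for the largest differences, 14 higher and 15 lower in CD4, with the same sign in all sets. Points are the 5 sets, black bars the fitted value with its SE, and Itgae, Spsb1 and Osgin1 have the widest spread between sets among the genes lower in CD4.

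On the other side, Xcl1, Ccr6 and Il17a were among the genes whose gut effect was higher in CD4. Xcl1, a chemokine that draws cross-presenting dendritic cells, stood at 6.51, 4.82, 2.26, 7.01 and 4.93 CPM in CD4 spleen and at 87.7, 75.2, 46.9, 49.2 and 61.4 in CD4 gut. In CD8 it stood at 38.6, 24.0, 4.99, 12.6 and 24.2 CPM in spleen and at 133, 94.7, 60.7, 17.1 and 110 in gut. CD4 and CD8 overlapped in gut, and in spleen all but 1 CD8 library were above every CD4 library. The gut effect was 3.68 in CD4 and 2.0 in CD8, a difference of 1.78 ± 0.19 (adjusted p 9.7e-04, edgeR).

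Of 10 tested genes of the Th17 list, 4 were higher in CD4 (Ccr6, Il17a and Il23r among them) and 2 lower (Batf and Il1r1). Over all genes 9.62% were higher and 7.45% lower. The counts of the list were 1 and 0 with the set as the only block and with limma on the 5 differences. Il17a, encoding the cytokine IL-17A, stood at 0.0584 to 0.337 CPM in CD4 spleen, 0.0462 to 0.295 in CD8 spleen, 2.41 to 14.3 in CD4 gut and 0.701 to 2.85 in CD8 gut. Its difference of 1.92 ± 0.56 (adjusted p 0.031, edgeR) rests on 1 to 8 counts in each spleen library. It was not called by DESeq2 or without anti-IL-2 181201, anti-IL-2 181212 or IgG 181212 (adjusted p from 0.073 to 0.16). Il23r, a chain of the IL-23 receptor, had a difference of 1.98 ± 0.30, with -1.18 in CD8 and 0.52 in CD4, the latter not called. Il22, Rora and Maf had differences of 2.80 ± 1.35, 0.62 ± 0.16 and 0.23 ± 0.08, none of them called. Foxp3, the factor of regulatory T cells, had 0.18 ± 0.51.

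Ccr6, a chemokine receptor shared by Th17 cells and gut-homing lymphocytes, moved in opposite directions. It stood at 6.92, 5.76, 1.35, 2.28 and 7.20 CPM in CD4 spleen and at 19.8, 14.6, 1.32, 2.16 and 9.85 in CD4 gut. CD8 spleen held 21, 28.0, 1.16, 1.95 and 20.7 CPM and CD8 gut 8.93, 7.98, 0.175, 0.371 and 11.5. Every CD8 pair was lower in gut, and of the CD4 pairs 3 were higher and 2 (anti-IL-2 190306 and IgG 181212) nearly level, the same 2 sets in which all levels were lowest. The gut effect was 0.77 ± 0.26 in CD4 (adjusted p 0.0497, edgeR) and -1.41 ± 0.20 in CD8. The difference was 2.38 ± 0.28 (adjusted p 9.7e-04, edgeR), the largest of the genes higher in CD4 that were ranked by size.

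Promoter sequences are given for 4 genes with large unequal gut effects, a pair higher in CD4 and a pair lower in CD4, as RefSeq gives them for GRCm38.p6. Each is the 300 bases around the first listed start, 5′ to 3′ on the gene's strand. Capitals mark matches, on either strand, to AGGTCA (a half-site of nuclear receptors, contained in the NR4A motif AAAGGTCA) or to TGANTCA (AP-1).
Ccr6, chr17:8235793-8236092, plus strand: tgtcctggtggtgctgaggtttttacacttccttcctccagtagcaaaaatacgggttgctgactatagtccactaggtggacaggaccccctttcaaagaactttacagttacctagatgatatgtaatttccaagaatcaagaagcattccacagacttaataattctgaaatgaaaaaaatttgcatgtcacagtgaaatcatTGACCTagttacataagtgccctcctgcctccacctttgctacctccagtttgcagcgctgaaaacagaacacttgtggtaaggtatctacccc
Il17a, chr1:20730655-20730954, plus strand: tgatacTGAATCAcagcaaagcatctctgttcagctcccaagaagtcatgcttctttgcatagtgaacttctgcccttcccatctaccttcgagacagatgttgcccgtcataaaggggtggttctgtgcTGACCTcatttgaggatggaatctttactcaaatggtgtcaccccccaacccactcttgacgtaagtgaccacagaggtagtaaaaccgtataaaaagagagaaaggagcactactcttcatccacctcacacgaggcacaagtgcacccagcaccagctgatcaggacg
Osgin1, chr8:119436897-119437196, plus strand: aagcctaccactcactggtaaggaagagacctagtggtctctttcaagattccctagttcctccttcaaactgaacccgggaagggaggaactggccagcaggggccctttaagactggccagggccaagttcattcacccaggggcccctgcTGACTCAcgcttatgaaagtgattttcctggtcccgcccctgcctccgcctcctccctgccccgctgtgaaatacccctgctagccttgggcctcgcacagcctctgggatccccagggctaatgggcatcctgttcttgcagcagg
Spsb1, chr4:149954957-149955256, minus strand: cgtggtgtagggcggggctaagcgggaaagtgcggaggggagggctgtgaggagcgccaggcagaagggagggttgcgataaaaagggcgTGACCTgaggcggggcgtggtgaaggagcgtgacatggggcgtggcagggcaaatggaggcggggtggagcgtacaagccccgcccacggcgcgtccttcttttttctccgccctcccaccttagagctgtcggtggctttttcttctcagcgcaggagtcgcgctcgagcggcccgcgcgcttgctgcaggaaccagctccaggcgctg
The AGGTCA match begins at -44 in Ccr6, at -120 in Il17a and at -160 in Spsb1, and the AP-1 match at -244 in Il17a and -97 in Osgin1, counted from the start. Matches are common: of 9401 promoters of tested genes, 12.1% hold AGGTCA, 4.7% TGANTCA, 0.8% AAAGGTCA and 8.4% TNGCGTG (the AhR and ARNT motif). Of the 14 genes named for the largest differences higher in CD4, 12 have a promoter in the table, with 1 AGGTCA and 1 TGANTCA promoter among them. Of the 15 lower in CD4, 11 have one, with 2 and 1. None of these promoters holds TNGCGTG or AAAGGTCA. Most of them hold no match at all, whereas all 4 printed promoters hold one, so the printed ones are not typical. Il17a was named from the panel, not for its size. A match is a description of letters and was not tested for binding.

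Further genes with larger gut effects in CD4 were receptors and effector molecules. Adgrg1, an adhesion receptor of cytotoxic lymphocytes, rose in gut by 2.91 in CD4 and 1.48 in CD8 (difference 1.45 ± 0.13), from 0.800 to 1.87 CPM in CD4 spleen to 5.49 to 17.9 in CD4 gut. Its CD8 level stayed far above, at 29.7 to 54.1 CPM in spleen and 79.1 to 146 in gut. Tnfrsf9, the costimulatory receptor 4-1BB, had 1.29 in CD4 and 0.41 in CD8, the latter not called (difference 0.89 ± 0.07). Nr4a3, a nuclear receptor induced by antigen receptor signals, had 2.37 and 1.57 (0.81 ± 0.10), whereas its relative Nr4a1 had 2.18 and 2.04 (0.17 ± 0.16, not called).

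Of 17 Th1 and inflammatory genes, 4 were higher in CD4 (Csf2, Ifng, Il18rap and Tbx21) and 3 lower (Hlx, Ltb and Tnf). The median was 0.05, and of all genes 9.62% were higher and 7.45% lower. The counts of the list fell to 1 and 1 with the set as the only block, and to 0 and 1 with limma on the 5 differences. Csf2, encoding GM-CSF, rose in gut by 2.24 in CD4 and 1.27 in CD8 (difference 1.06 ± 0.22, adjusted p 0.0066 by edgeR). Ifng rose by 1.84 and 1.35 (0.50 ± 0.11, adjusted p 0.024 by edgeR), a call that was lost without anti-IL-2 181212, without anti-IL-2 190306 and without batch 190306 (adjusted p from 0.056 to 0.077). Tnf rose by 1.30 and 2.10 (-0.78 ± 0.20), and Ltb, encoding lymphotoxin beta, had -0.26 in CD4 and 0.36 in CD8 (-0.60 ± 0.07). Prdm1, encoding Blimp-1, rose in gut in CD4 by 0.60 and had -0.12 in CD8, not called (0.73 ± 0.11). Tbx21 and Runx3, factors of cytotoxic and Th1 fates, had differences of 0.26 ± 0.07 and 0.27 ± 0.05, and Gata3 had 0.22 ± 0.05. Without IgG 190306 neither Tbx21 (adjusted p 0.053) nor Gata3 (adjusted p 0.094) was called, and the same held for Tbx21 without anti-IL-2 181212 (adjusted p 0.091) and for Gata3 without anti-IL-2 190306 (adjusted p 0.068).

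Of 15 tested genes of the killing machinery, 6 were higher in CD4 (Ctsw, Fasl, Gzmc, Nkg7, Prf1 and Serpinb6b) and 2 lower (Lamp1 and Srgn), with a median of 0.43, where 9.62% of all genes were higher. The counts were 0 higher and 2 lower with the set as the only block, and 1 and 2 with limma on the 5 differences. Of all genes 7.45% were lower. Prf1, encoding perforin, stood at 47.1 to 83.8 CPM in CD4 spleen, 65.7 to 89.3 in CD4 gut, 385 to 511 in CD8 spleen and 308 to 474 in CD8 gut. Its gut effect was called in neither cell type, and the difference was 0.55 ± 0.12. Gzmb and Gzma, the granzymes raised in gut in both, had differences of 0.57 ± 0.29 and 1.07 ± 0.45, not called. Of 14 NK receptor genes, 4 were higher in CD4 (Cd160, Klrb1b, Klrg1 and Klrk1) and none lower, and the 4 became 2 with the set as the only block and with limma on the 5 differences. NK cell markers (7 genes) summed to 70.3 to 177 CPM in CD4 spleen, 112 to 2309 in CD4 gut, 523 to 1505 in CD8 spleen and 1579 to 4998 in CD8 gut. In gut most of that sum was Gzma, which T cells also make. Of the 7, 3 were tested and none was called, with a median difference of 0.52. Ncr1, the NK receptor NKp46, stood at no more than 0.972 CPM in any library, and Klra4 was at 0 in all 20.

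A pair of genes lower in CD4 differed through losses in CD4 gut. Gpm6b, a membrane proteolipid, stood at 53.8, 47.2, 9.68, 15.2 and 35.2 CPM in CD4 spleen and at 9.56, 8.91, 2.50, 3.72 and 7.93 in CD4 gut. Its CD8 values were 5.04, 4.84, 1.02, 2.12 and 5.11 CPM in spleen and 5.70, 6.46, 1.10, 1.96 and 4.43 in gut. All CD4 pairs fell (-2.23 ± 0.10) and CD8 pairs went either way (0.10 ± 0.15, not called), a difference of -2.36 ± 0.17 (adjusted p 1.6e-06, edgeR). Maats1, a cilia-associated gene, fell by 3.01 in CD4 and 0.62 in CD8 (-2.36 ± 0.17). In the opposite direction, Nos1, the neuronal nitric oxide synthase, fell by 1.26 in CD8 gut and had 0.34 in CD4, not called (1.63 ± 0.19). Nrgn, a calmodulin-binding protein, had 0.89 in CD4 and -0.53 in CD8, the latter not called (1.46 ± 0.10). Aldh7a1, Cd200r4, F2rl2, Ltb4r1, Prr5, Rmdn2, Serpine2 and Stk32c were also among the largest genes higher in CD4, with 1.24 to 1.46. Rflnb, Pou2af1, Myo6 and Ryr1 make up the rest of those lower in CD4, with -1.83 to -1.66. Cd200r4 belongs to a family of near-identical receptors, so its counts are uncertain.

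Immediate early genes, which answer antigen receptor and stress signals, rose in gut for 23 of 25 genes in each cell type. Over all genes 20.4% rose in CD4 and 21.4% in CD8. Of the differences, 4 were higher in CD4 and 4 lower (9.62% and 7.45% of all genes were), with a median of -0.04. The 4 and 4 became 0 and 0 with the set as the only block and 2 and 0 with limma on the 5 differences. Nr4a2 (1.21 ± 0.18) and Nr4a3 were higher in CD4, though Nr4a1 was not called, together with Dusp5 (0.60 ± 0.11), a phosphatase of ERK, and Klf6 (0.33 ± 0.08). Egr1 (-0.90 ± 0.20), Egr2 (-0.46 ± 0.12) and Egr3 (-0.30 ± 0.08), zinc finger factors, were lower in CD4 together with Jund (-0.24 ± 0.06), a subunit of AP-1. Egr1 rose by 2.26 in CD4 and 3.16 in CD8, and Nr4a2 by 2.76 and 1.55.

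**Figure D3:**
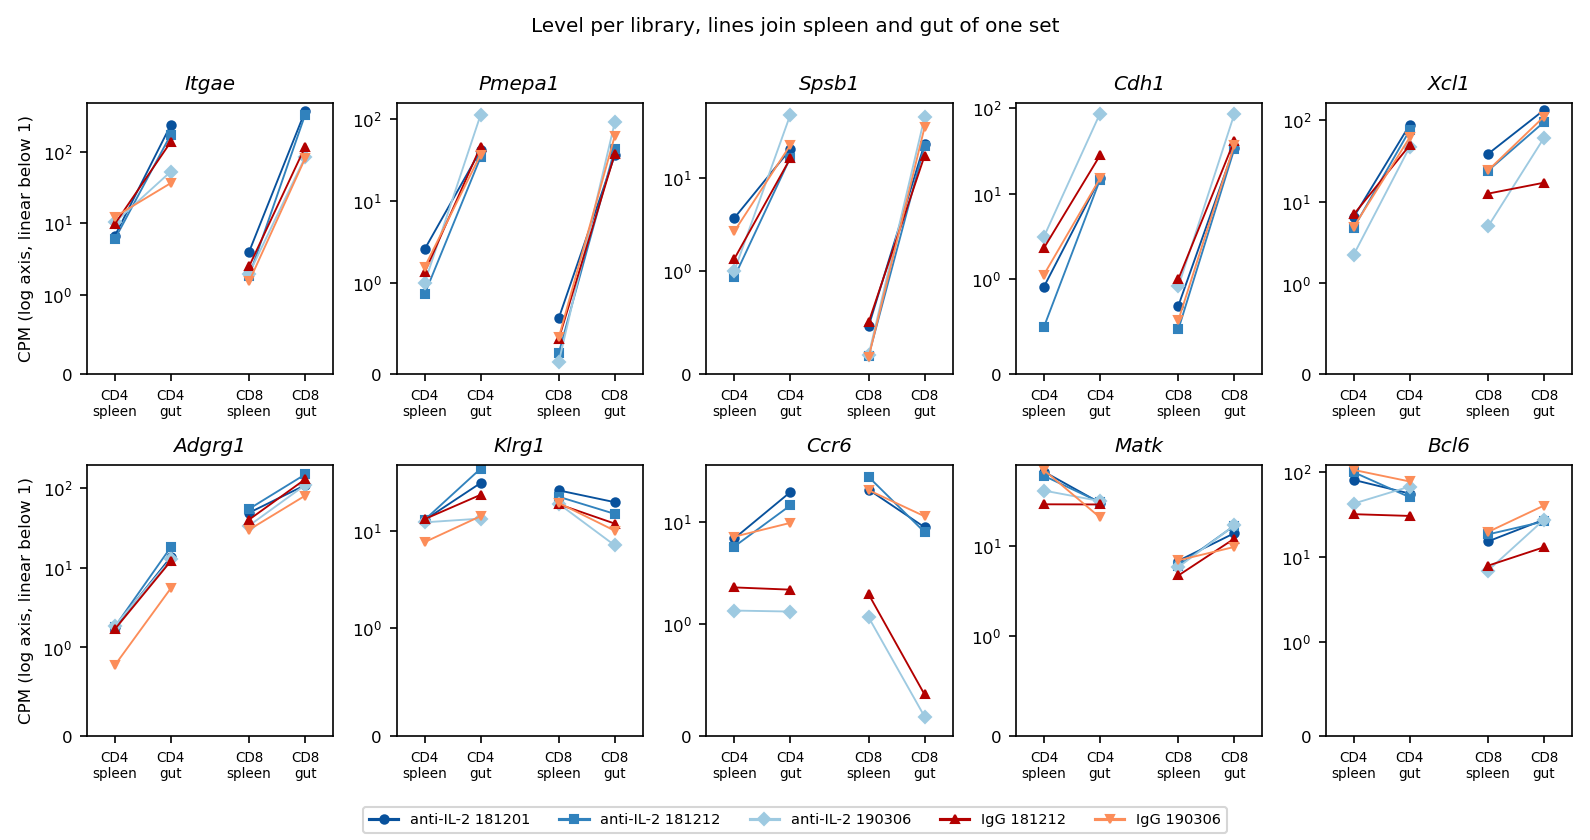
Level of 10 genes in each of the 20 libraries (vertical axis, CPM, log scale that is linear below 1), with lines joining spleen to gut inside a set and 1 colour and symbol a set. Itgae, Pmepa1 and Spsb1 start lower in CD8 spleen than in CD4 spleen and overlap between the cell types in gut, while Klrg1 slopes up in CD4 and down in CD8. Ccr6 slopes down in CD8 in all sets and up in CD4 in 3 of 5.

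Opposite gut effects, called in both cell types with a called difference, were found for 31 genes, 14 higher in CD4 and 17 lower. Klrg1, an inhibitory receptor of terminal effector cells that also binds E-cadherin, stood at 12.9, 13, 12.2, 13.2 and 7.66 CPM in CD4 spleen and at 31.0, 43.5, 13.4, 23.5 and 14.2 in CD4 gut. For CD8 the levels were 26.1, 22.4, 19.0, 18.8 and 19.3 CPM in spleen and 19.7, 15, 7.09, 11.9 and 10.0 in gut. Every CD4 pair was higher in gut and every CD8 pair lower. In spleen all CD8 libraries were above all CD4 libraries, and within each set the order was turned round in gut. The gut effect was 0.98 ± 0.21 in CD4 and -0.78 ± 0.13 in CD8, a difference of 1.78 ± 0.12 (adjusted p 1.6e-06, edgeR).

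Matk, a kinase that restrains SRC family kinases, moved the other way. It stood at 67.3, 60.5, 41.5, 29.3 and 70.0 CPM in CD4 spleen and at 30.4, 30.8, 31.8, 29.1 and 20.9 in CD4 gut. In CD8 it stood at 6.89, 6.08, 5.87, 4.74 and 6.97 CPM in spleen and at 14.0, 16.9, 17.0, 12.2 and 9.83 in gut. The CD8 groups did not overlap between tissues. In CD4 the IgG 181212 pair was level and the other 4 were lower in gut. The effects were -0.85 ± 0.24 in CD4 and 1.19 ± 0.15 in CD8, a difference of -2.05 ± 0.13 (adjusted p 1.7e-06, edgeR), and CD4 stayed above CD8 in both tissues.

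The other opposite genes with the smallest p were Itga2, Igf2r, Ptpn6 and Zfp318. Itga2, the CD49b chain of a collagen receptor, had 0.77 in CD4 and -0.28 in CD8, and Igf2r, the receptor for mannose 6-phosphate cargo, had 0.56 and -0.23. Ptpn6, the phosphatase SHP-1, had -0.24 and 0.37, and Zfp318 had -0.34 and 0.50. Airn lies across Igf2r on the other strand, and Gm20531 across Ptpn6. Runx1 (0.39 and -0.25), Nr3c1, the glucocorticoid receptor (0.24 and -0.17), Per2, a clock gene (-0.38 and 0.87), and Ltb, encoding lymphotoxin beta (-0.26 and 0.36), are among the 31, and the first 3 of these were picked after their values were seen.

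Cell cycle genes were higher in CD4 by count. They fell in gut in CD8 and had few called effects in CD4. Of 30 mitosis and spindle genes, 29 were higher in CD4 (9.62% of all genes were), with a median difference of 0.53. In CD8, 28 of the 30 were lower in gut (20.7% of all genes were) and in CD4 none was called in either direction. Mki67, the proliferation marker, stood at 619, 719, 1210, 1236 and 815 CPM in CD4 spleen and at 678, 886, 749, 778 and 778 in CD4 gut. The CD8 libraries gave 1521, 1619, 2398, 2422 and 1611 CPM in spleen and 1072, 1211, 1228, 1152 and 927 in gut. Every CD8 pair was lower in gut, without overlap between the tissues, while of the CD4 pairs 2 were higher and 3 lower. The effects were -0.20 ± 0.16 in CD4, not called, and -0.74 ± 0.10 in CD8, a difference of 0.55 ± 0.07 (adjusted p 2.6e-04, edgeR).

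The direction within CD4 differed between sets but the difference from CD8 did not. Median gut effects of the 30 mitosis genes in CD4 were 0.46, 0.43, -0.54, -0.43 and -0.08 in the 5 sets, and in CD8 they were -0.13, -0.29, -0.78, -0.75 and -0.86. The median of the differences was 0.63, 0.77, 0.26, 0.29 and 0.74, and at least 29 of the 30 genes were above 0 in each set. Of 30 DNA replication genes, 20 were higher in CD4 (9.62% of all genes were) and none lower, with a median of 0.33. In CD8, 18 were lower in gut (20.7% of all genes were). Mcm4, a helicase subunit, had 0.07 in CD4, not called, and -0.27 in CD8. Without batch 190306 the counts were 26 of 30 for mitosis and 10 of 30 for replication. With the set as the only block they were 0 and 1, at medians of 0.52 and 0.32, and with limma on the 5 differences 13 and 8.

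Of 34 tested genes of the type I interferon response, 21 were lower in CD4 and 1 (Ifih1) higher, with a median of -0.49, where 7.45% of all genes were lower. In CD4, 25 of the 34 fell in gut and 2 rose. In CD8, 14 fell and 6 rose. Of all genes, 19.3% fell and 20.4% rose in CD4, and 20.7% fell and 21.4% rose in CD8. Ifit1, an interferon-induced sensor of viral RNA, stood at 38.0, 67.0, 13.5, 13.4 and 32.6 CPM in CD4 spleen and at 15.5, 15.3, 3.99, 4.94 and 9.45 in CD4 gut. CD8 spleen held 13.7, 18.3, 4.81, 4.62 and 15.9 CPM and CD8 gut 11.3, 9.0, 6.57, 3.18 and 9.94. Every CD4 pair was lower in gut, by -1.69 on average, and CD8 pairs were lower in 4 of 5 sets (-0.42, not called). The difference was -1.24 ± 0.16 (adjusted p 3.5e-04, edgeR).

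Differences of other members called lower included -1.59 (Oasl1), -1.50 (Ifit3), -1.06 (Mx1) and -0.16 (Oas3). Usp18, an inhibitor of interferon signalling, had -1.16. Ifih1 was called higher, and the remaining members were not called. Isg15 (0.70) and Stat2 (0.44) rose in CD8 gut and had no called effect in CD4. Without batch 190306, 13 of the 34 were lower, with the set as the only block 10, and with limma on the 5 differences 8. Of 15 tested macrophage genes, 6 were lower in CD4 (Apoe, C1qa, C1qb, C1qc, Mrc1 and Slc40a1) and 1 higher (Cd68), with a median of -1.48. Of all genes 7.45% were lower and 9.62% higher. By limma on the 5 differences none was called. Set medians of the macrophage genes were -2.26, -2.22, -0.61, 0.37 and -0.72. Those of the interferon genes were -0.25, -0.29, -0.99, -0.34 and -0.44. C1qa stood at 32.2, 3.69, 1.26, 0.701 and 26.4 CPM in CD4 spleen and at no more than 4.75 in CD4 gut. In CD4 spleen C1qa was highest in anti-IL-2 181201 and Ifit1 in anti-IL-2 181212. Both were lowest there in IgG 181212 and next lowest in anti-IL-2 190306. Whether RNA of macrophages has a part in the interferon values was not tested.

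Of 12 tested follicular helper genes, 10 had a difference lower in CD4 and none higher, with a median of -0.81. Among all genes 7.45% were lower. In gut, 9 of the 12 fell in CD4, and in CD8 5 fell and 1 (Bcl6) rose. Of all genes, 19.3% fell in CD4 and 20.7% in CD8. The set medians of the difference were -0.91, -0.50, -0.92, -0.75 and -0.85. Bcl6, the transcription factor of these cells, stood at 80.9, 99.5, 42.6, 31.9 and 106 CPM in CD4 spleen and at 55.8, 50.6, 67.5, 30.5 and 77.5 in CD4 gut. For CD8 the levels were 15.3, 18.5, 6.93, 7.91 and 19.7 CPM in spleen and 27.6, 26.2, 27.5, 13.1 and 40.4 in gut. Every CD8 pair was higher in gut (1.02 ± 0.20), while CD4 tissues overlapped (-0.28 ± 0.22, not called). The difference was -1.33 ± 0.09 (adjusted p 1.6e-06, edgeR).

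Cxcr5, the receptor that guides T cells into follicles, stood at 179, 220, 78.3, 45.8 and 228 CPM in CD4 spleen and at 34.5, 44.0, 3.99, 5.55 and 46.5 in CD4 gut. In CD8 it stood at 29.9, 39.4, 3.28, 1.84 and 39.1 CPM in spleen and at 11.8, 11.6, 0.788, 0.637 and 20.4 in gut. All 10 pairs were lower in gut, by -2.75 in CD4 and -1.40 in CD8 (difference -1.09 ± 0.16 in the joint fit). Il6st, the signalling chain of the IL-6 receptor, fell by 1.07 in CD4 and had -0.04 in CD8, not called. Pdcd1, also of this list, had a difference of 0.02 ± 0.11.

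Of 15 naive and memory genes, 8 were lower in CD4 (7.45% of all genes were) and none higher, with a median of -0.31. Tcf7, the factor of stem-like T cells, fell in gut by 1.56 in CD4 and 1.02 in CD8 (difference -0.52 ± 0.12, not called without anti-IL-2 181201 or without IgG 190306), and Ccr7, which directs T cells to lymph nodes, by 2.09 and 1.33 (-0.69 ± 0.16). S1pr1 and Klf2, the factor that drives it, fell in gut in both cell types, with differences of 0.02 ± 0.09 and 0.28 ± 0.13 that were not called. Without batch 190306, follicular helper genes gave 8 of 12 and naive and memory genes 8 of 15. With the set as the only block they gave 5 of 12 and 1 of 15, and with limma on the 5 differences 4 of 12 and 2 of 15.

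**Figure D4:**
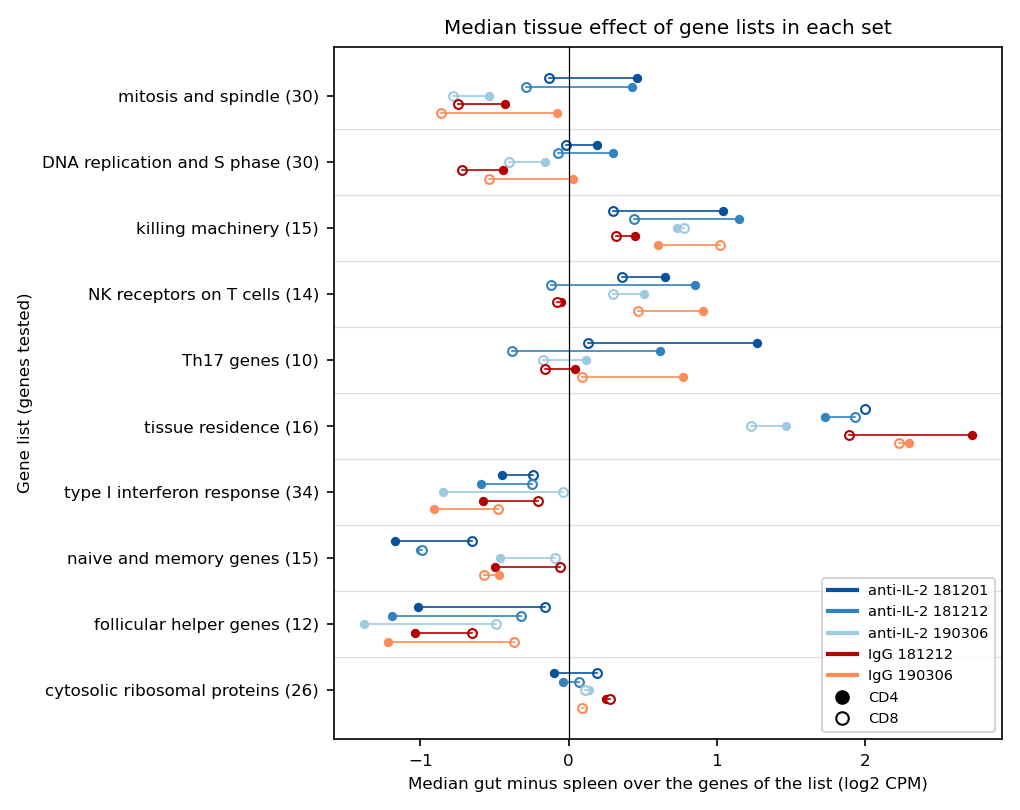
Median gut minus spleen (log2 CPM, horizontal axis) over the tested genes of 10 lists, in CD4 (filled circles) and CD8 (open circles), with a line joining both in each of the 5 sets. Mitosis medians lie to the right in CD4 in each set, and follicular helper and interferon medians to the left. Ribosomal protein medians lie farthest apart in anti-IL-2 181201, at -0.10 in CD4 and 0.19 in CD8.

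Lists without a called difference were also found. None of 26 cytosolic ribosomal protein genes and none of 24 respiratory chain genes was called, with medians of -0.10 and 0.06. Ahr, the aryl hydrocarbon receptor, rose in gut by 1.84 in CD4 and 2.12 in CD8 (difference -0.27 ± 0.17). Il10 rose by 2.09 and 1.65 (0.47 ± 0.49). Intervals this wide do not show equal effects. Zfp683 and Cyp1b1 had too few counts to be tested.

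Whether the difference between cell types itself depended on the treatment label was asked with a further term (anti-IL-2 sets minus IgG sets). No gene was called by edgeR, with 478 genes (3.94%) at an unadjusted p under 0.05. DESeq2 called 3, Ccl4 (1.14), Dusp2 (0.67) and Jchain (-2.39), and edgeR without batch 181201 called 0. The term has 3 residual degrees of freedom and pools batches whose label effects run opposite ways.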

How the data were processed

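RNA-seq libraries of sorted donor T cells were deposited by the authors as 1 table of raw counts per gene name. Reads were aligned with TopHat2 to mm10 and counted with HTSeq 0.9.1, per the submitters' processing notes. The annotation, strand setting and read filters are not given in the sources used here. The kit was a stranded mRNA kit, per the labels' protocols.

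Each library's tissue came from its source name, its cell type, treatment and batch from the characteristics. Genes were kept by filterByExpr of edgeR 4.0.16 (R 4.3.3, minimum count 10) over the 4 cell type and tissue groups, with TMM scaling, and CPM values use TMM-scaled totals. The main edgeR quasi-likelihood model held the set, cell type within set, tissue within set and cell type by tissue (4 residual degrees of freedom), with Benjamini-Hochberg adjustment over all genes tested. Gut minus spleen was also fitted in CD4 and in CD8 alone, with the set as block, and a treatment term was added in a further fit. The set pairs libraries by batch and label alone. SE is the log2 change divided by the square root of F. Values per set use log2 CPM with a prior count of 2. The code was tested on 1 simulated data set at an adjusted p under 0.05. It recovered 82% of planted changes of 1 log2 and 72% of those of 0.5 log2. Of its 174 calls, 20 (11.5%) were unchanged genes, more than the nominal share. Alternatives were DESeq2 1.42.0, limma 3.58.1, other scalings, filters, blocks and left-out sets. No pair of libraries had equal counts in more than 1.97% of genes.

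Genes named are, past an adjusted p of 0.05, the 15 largest in each direction (same sign in all 5 sets, average log2 CPM not under 2), the 6 opposite genes of smallest p, the member of smallest p in each list with a call, and a panel named whatever its values. Some genes that this rule names are not reported here, and none took their place. Clone names, predicted genes and receptor segments were left out of the first and second rule. These members and lists were chosen with earlier results of these data known. Coordinates are from GENCODE M21, whose symbols matched 97.6% of gene names, and 36 of 98 named genes overlap another gene. Promoters are from RefSeq.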

Additional observations from a re-analysis of the deposited data

Results flagged for a closer look

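The 5 set values of each of 98 named genes were screened for 1 value far from the other 4, and 6 genes had one. Chance alone gives about 1 in 20. In IgG 181212 the difference of differences (log2) was 1.66 for Aldh7a1, an aldehyde dehydrogenase, against 1.12 to 1.16 in the other sets. In that set it was -0.78 for Bcl6 (others -1.48 to -1.31), 0.78 for Itga2 (others 1.11 to 1.15) and 0.70 for Rmdn2 (others 1.35 to 1.51). Eomes, a factor of cytotoxic and memory T cells, had -0.79 in anti-IL-2 190306 and 0.45 to 0.88 elsewhere. Pou2af1, a B cell and follicular helper coactivator, had -3.06 in anti-IL-2 181212 and -1.31 to -1.19 elsewhere.

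For 4 of the 98 named genes all anti-IL-2 sets had one sign and both IgG sets the other. Random signs also give this split in some genes, and its share over all genes was not counted. The mean of the anti-IL-2 sets minus that of the IgG sets was -0.60 for Ahr, -0.96 for Hspa1a, 0.71 for Nr4a1 and 0.55 for Pdcd1. The treatment term was called for none of them by edgeR, and the sets of batch 190306 sit with the opposite label on the second principal component.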

How the results depend on the processing

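The main counts were 1167 genes higher and 904 lower in CD4. They became 632 and 418 with DESeq2, 337 and 226 with limma on the 5 within-set differences, 220 and 215 with the set as the only replicate block, 8 and 10 with no replicate block, and 17 and 25 with 22 libraries, 8 groups and batch. They became 536 and 449 without batch 190306, 674 and 542 in the anti-IL-2 sets alone, 61 and 88 in the IgG sets alone, and 77 and 182 with a fold of at least 2 besides. Leaving out each set in turn gave 634 to 1165 higher and 579 to 869 lower, lowest without anti-IL-2 181212, and without IgG 190306 664 and 591. Library totals moved the split to 788 and 1342. All 2071 called genes kept their sign with the set as the only block and with limma on the 5 differences, and 2063 did in the IgG sets alone. These settings use the libraries that made the calls, or a part of them. A kept sign is therefore no independent support. All 2071 also kept it with no replicate block, where 18 calls remained. With no replicate block gut minus spleen gave 2058 calls in CD4 and 2212 in CD8. DESeq2 called the treatment term for 3 genes. Labels carry no replicate numbers shared between groups, so the block is the batch and treatment label.

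With tissue taken from the description field, 0 genes were higher and 3 lower in CD4, and gut minus spleen in CD8 gave 0 calls. That setting exchanges gut and spleen in 2 of 5 CD8 pairs, and 1489 of the 2071 called genes (71.9%) kept their sign under it. It turned the sign of Apol9b (6.10), B4galnt4 (0.81), Cd69 (2.13), Cdh1 (3.41), Cela1 (0.26), Cish (1.51), H2-Q4 (0.48), Isg20 (0.28), Itgae (1.59), Klf3 (-0.43), Mki67 (-0.19), Osgin1 (2.67), Pmepa1 (4.01), Ski (0.51), Socs2 (0.21), Spsb1 (2.48), Srgn (0.39) and St8sia1 (0.63). The IgG sets alone turned Dcn (0.13). Itgae, Il17a, Cd69 and Ifng each lost their call when 1 of several sets was left out. Genes with a few counts in spleen have fitted folds that depend on the prior count.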

Other observations

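Metabolic and stress lists had medians near 0, and their called shares varied. Over all genes 17.1% were called, 9.62% higher and 7.45% lower in CD4. None of 24 respiratory chain genes was called. Of 14 ATF4 response and serine-folate genes, 1 was higher and 0 were lower. Of 20 glycolysis genes, 4 were higher in CD4 and 1 lower by edgeR, with a median difference of 0.09. The glucose transporters Slc2a1 (0.40 ± 0.05, log2, SE) and Slc2a3 (0.52 ± 0.06) were among the higher ones, with the regulator Pfkfb3 and the lactate transporter Slc16a1, and Pdk1, which holds pyruvate back from mitochondria, was lower (-0.31 ± 0.07). Slc2a1 fell in gut in CD8 (-0.35) and had 0.04 in CD4, not called. Of 24 cholesterol and lipid genes, 4 were lower in CD4 and 1 higher, with a median of -0.07. Fdps, an enzyme of isoprenoid synthesis, rose in gut by 0.89 in CD4 and 1.35 in CD8. Fasn, the fatty acid synthase, fell in CD4 (-0.49) and had 0.01 in CD8, not called.

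Of 18 heat shock chaperone genes, 4 were higher in CD4 (Bag3, Dnajb4, Hspa4l and Hsph1) and none lower, with a median of 0.04. The count was 1 with DESeq2, with limma on the 5 differences and with the set as the only block. Of 14 AhR and NRF2 targets, Tiparp (0.66 ± 0.09) and Txnrd1 (0.20 ± 0.04) were higher in CD4 and Osgin1 was lower.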
